A study of Homo sapiens with 6 samples.

Results

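The expression of 46 genes of DNA replication was examined upon knockdown of PQBP1 in HEY cells, an established human ovarian cancer cell line. The members were the rows of the deposited gene table that carry the names of the origin licensing factors, the replicative helicase, the DNA polymerases, the clamp and Okazaki fragment enzymes, the single-strand binding protein and the enzymes of deoxynucleotide supply. All 46 names were found among the 32679 genes of the table, and all 46 passed the filter on low values. The study asked how the splicing factor PQBP1 acts in ovarian cancer cells, and the comparison described here asks whether the mRNA of the replication machinery differed between knockdown and control cells.

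The control group (shNC, 3 samples) carried a control hairpin, and its labels give no treatment and day 3. The knockdown group (shPQBP1, 3 samples) carried a hairpin against PQBP1, and its labels give doxycycline at 1 µg/ml, which induces the hairpin, and also day 3. Going by the labels, the groups differ in doxycycline as well as in the hairpin, and these cannot be told apart. The cells of both groups are stable lines made with lentivirus and selected with puromycin, all derived from 1 cell line, and whether the lines are single clones is not given in the sources used here. The series describes the samples of a group as biological triplicates. Expression is given as FPKM, a fragment count divided by transcript length and by the sample's mapped total, so that levels of different genes may be set side by side.

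Replication is prepared in G1 by a step called licensing. In it the origin recognition complex (ORC1 to ORC6), CDC6 and CDT1 load the MCM2 to MCM7 helicase ring onto DNA. In S phase CDC45 and the GINS complex join the ring and turn it into the active helicase. DNA polymerase alpha and primase then lay down primers, polymerases epsilon and delta copy the strands, RFC loads the PCNA clamp, and FEN1 and LIG1 join the Okazaki fragments. Many of these genes are transcribed at the passage from G1 to S phase under the control of E2F factors, which bind DNA letters of the kind TTTCCCGC, and their mRNA is commonly read as a mark of proliferating cells.

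The promoters of the members were searched for such letters, since they are the regulatory sequence that this gene set is known for. RefSeq promoter windows of assembly GRCh38.p14, from 250 bases before to 50 bases after an annotated start site, were at hand for 40 of the 46 members (51 windows). The 6 members without a window are MCM4, MCM5, GINS4, POLD3, RPA2 and RPA3. The motifs TTTCCCGC, TTTCGCGC, TTTGCCGC and TTTGGCGC were searched on both strands. At least 1 of them stood in 20 of the 51 windows (39.2%), against 3.31% of all 35116 windows of this length. Counted by gene, 20 of 40 members (50%) and 3.99% of 27305 genes held a match in any window. Windows with at least 2 matches made up 7.84% of the members' windows and 0.145% of all windows. The pentamer CCAAT, on either strand, stood in 58.8% of the members' windows and in 34.6% of all windows. The match was most frequent among the helicase genes, at 8 of 10 genes, and stood in 4 of 9 licensing genes, 4 of 8 polymerase genes, 3 of 8 clamp and Okazaki genes and 1 of 4 nucleotide supply genes. A match describes letters only, and no binding was measured here. The windows of all genes were not matched to those of the members for base composition or expression. The part of these in the contrast was not tested.

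The following stretches of 30 bases are a selection of the matches, shown because they lie in genes whose values are given below. Each is written 5′ to 3′ along the gene's own strand, with the matched letters in capitals. Positions count from 0 at the start site.
MCM6, chr2:135876577-135876606, minus strand, match at -152: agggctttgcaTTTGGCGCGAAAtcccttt
MCM6, chr2:135876515-135876544, minus strand, match at -90: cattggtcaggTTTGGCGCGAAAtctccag
MCM2, chr3:127598402-127598431, plus strand, match at 2: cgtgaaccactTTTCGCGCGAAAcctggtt
MCM3, chr6:52284728-52284757, minus strand, match at -4: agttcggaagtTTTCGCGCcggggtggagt
MCM7, chr7:100101388-100101417, minus strand, match at -9: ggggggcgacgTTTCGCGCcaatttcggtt
GINS2, chr16:85688967-85688996, minus strand, match at -31: ctctcgccgtgGCGGGAAAacggcggccgc
CDC6, chr17:40287875-40287904, plus strand, match at 7: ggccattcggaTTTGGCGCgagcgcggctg
ORC3, chr6:87590112-87590141, plus strand, match at -12: cgcgagggcgcGCGGGAAAtcccgagtgca
PCNA, chr20:5126663-5126692, minus strand, match at -59: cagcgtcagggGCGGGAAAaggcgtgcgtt
LIG1, chr19:48170440-48170469, minus strand, match at -114: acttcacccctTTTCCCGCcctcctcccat
TYMS, chr18:657603-657632, plus strand, match at -39: gcgggacggccGCGGGAAAaggcgcgcgga
In MCM6 and MCM2 a match on the plus letters and a match on the opposite strand overlap, giving the runs TTTGGCGCGAAA and TTTCGCGCGAAA, and each such run counted as 2 matches. In GINS2, ORC3, PCNA and TYMS the capitals GCGGGAAA are TTTCCCGC read on the opposite strand.

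PQBP1, the targeted gene, was at 7.18, 6.67 and 6.93 FPKM in shNC samples 1 to 3 and at 1.68, 1.72 and 1.44 FPKM in shPQBP1 samples 1 to 3. The groups did not overlap, and the log2 fold change on log2(FPKM + 0.1), the scale of all fold changes here, was -2.04 (SE 0.10, adjusted p = 0.00154, limma). Depth is unknown, since the table holds no counts. Sample shNC 1 stood apart, with a correlation of 0.926 to 0.955 with the other samples over all tested genes, and was the highest of the 6 samples in 21 members, against 2 to 10 for the other samples. It was the lowest in 12 members and shPQBP1 1 in 13. HEY cells showed the epithelial keratins KRT7, KRT8 and KRT18 at 52.8 to 94.6 FPKM together with the mesenchymal marker VIM at 1112 to 1343 FPKM. The keratin KRT19 was low, at 1.19 to 2.1 FPKM. The ovarian marker PAX8 was at 12.3 to 24.1 FPKM, whereas WT1 stayed at or below 0.71, EPCAM at or below 1.13 and MUC16 at or below 0.01. Summed over the lists, the ovarian markers reached 14.0 to 17.2 FPKM in shNC and 19.7 to 25.2 in shPQBP1 samples, and the mesenchymal markers 1176 to 1292 and 1424 to 1522. The ovarian sum was mostly PAX8, with means of 14.3 and 20.8 FPKM, while WT1 was lower in shPQBP1 samples without overlap (means of 0.67 and 0.37) and EPCAM was at 1.02 and 0.88. In the mesenchymal sum FN1, fibronectin, was at 42.51 to 44.57 FPKM in shNC and at 127.42 to 154.68 FPKM in shPQBP1 samples. Their part in the results was not tested. The leukocyte marker PTPRC was listed at 0 in every sample, with CD68 at 9.12 to 21.2 FPKM. Of the endothelial genes, PECAM1 and VWF stayed at or below 0.25, whereas CDH5 was at 2.11, 2.96 and 2.49 FPKM in shNC and at 3.10, 3.55 and 3.64 FPKM in shPQBP1 samples, without overlap.

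The replication genes were expressed in every sample over a wide range of levels. Their mean over the 6 samples ran from 2.87 FPKM for POLE2, an accessory subunit of polymerase epsilon, to 120.0 FPKM for PCNA, with a median of 11.5. Above 50 FPKM were PCNA, FEN1, TYMS, RRM1 and MCM3. Another 20 members lay from 10 to 50 FPKM and 21 below 10. Together the 46 genes held 0.317, 0.321 and 0.317% of the summed FPKM in shNC samples and 0.327, 0.323 and 0.340% in shPQBP1 samples. Their own sum was 1009.7, 946.2 and 964.2 FPKM in shNC and 923.7, 927.4 and 945.3 FPKM in shPQBP1 samples. The sum over all genes was 318484, 294970 and 304196 in shNC and 282734, 287423 and 278286 in shPQBP1 samples. Both sums were thus lower in every shPQBP1 sample, though the share was higher. The median member was at 11.01, 10.96 and 10.87 FPKM in shNC and at 11.02, 10.99 and 11.37 FPKM in shPQBP1 samples, so that the middle of the set lay at nearly the same level in both groups.

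**Figure D1:**
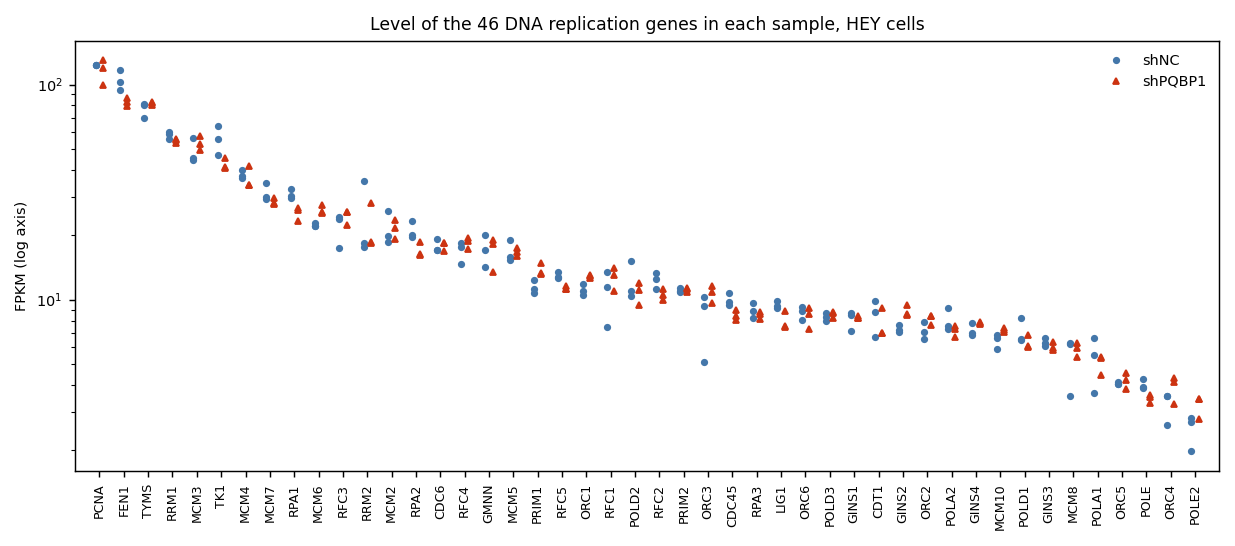
FPKM (log axis) of each of the 46 replication genes, ordered by mean level, in the 3 shNC samples (circles) and the 3 shPQBP1 samples (triangles). PCNA is highest at a mean of 120.0 FPKM and POLE2 lowest at 2.87, and for most genes the circles and triangles lie together, with the low circles of ORC3, RFC1, MCM8 and POLA1 coming from shNC 1.

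The mRNA levels of subunits of the same complex were not equal. Within the MCM2 to MCM7 ring, which takes up its 6 subunits in equal number, MCM3 was 3.07 times as high as MCM5 by the mean of 6 samples, and the ratio of the highest to the lowest subunit within a sample was 2.89 to 3.64. In ORC this ratio was 2.97 to 4.53 within a sample, with ORC1 highest and ORC4 lowest by the mean. In RPA, the trimer that coats single-stranded DNA, the ratio was 3.39, 3.59 and 3.44 in shNC samples and 2.70, 3.06 and 3.20 in shPQBP1 samples, with RPA1 highest and RPA3 lowest. The GINS subunits were closest together, with a ratio of at most 1.497 within a sample. Ribonucleotide reductase showed the least steady ratio. Its large subunit RRM1 exceeded its small subunit RRM2 by 1.56 times in shNC 1 and 1.96 times in shPQBP1 1, and by 2.90 to 3.37 times in the other 4 samples.

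No replication gene passed the test between the groups. At an adjusted p under 0.05, 0 of 46 members were called, against a background of 2.91% of all 11413 tested genes (332 genes, 1.73% higher and 1.18% lower), and the smallest adjusted p among members was 0.118. At an unadjusted p under 0.05 there were 11 members (23.9%), against 23.6% of all tested genes, so that the members' share was near the background. Of the 11, ORC1, MCM6, GINS2 and PRIM1 were higher (4 genes, against 11.9% of all tested genes) and CDC45, RFC5, FEN1, LIG1, RPA1, RPA2 and TK1 lower (7 genes, against 11.7%) in shPQBP1 samples. Leaving out shNC 1 gave 13 members at an unadjusted p under 0.05 (28.3%), against 24.8% of all genes in the same fit. The count was 4 members without shNC 2 (8.7%, against 25.8% of all genes), 5 without shNC 3 (10.9%, against 19.6%), 4 without shPQBP1 1 (8.7%, against 15.6%), 5 without shPQBP1 2 (10.9%, against 18.6%) and 7 without shPQBP1 3 (15.2%, against 15.8%). With median-of-ratios scaling it was 12 (26.1%, against 23.6% of all genes), with 3 higher and 9 lower. In that fit 11.2% of all genes were higher and 12.5% lower. With quantile normalization it was 11 (23.9%, against 24.4%), with 2 higher and 9 lower. Over all genes 10.2% were higher and 14.2% lower there, so that all genes leaned lower too. The 3 values of shNC did not overlap with the 3 of shPQBP1 in 15 members (32.6%), of which 5 were higher and 10 lower, while 34.4% of all tested genes did not overlap (17.3% higher, 17.1% lower). The exact permutation test of such a gene gives p = 0.1, the smallest that 3 samples against 3 allow.

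The size of the differences was small in all members. The log2 fold changes ran from -0.37 for TK1 to 0.43 for ORC3, with 23 above and 23 below 0 and a median of -0.0079, against a median of 0.0208 over all tested genes. The middle 50% of members lay between -0.15 and 0.15, and that of all tested genes between -0.18 and 0.25. All 46 members were within 0.5 log2 units of 0, as were 84.5% of all tested genes. The 95% interval stayed within 1 log2 unit of 0 in 45 members (81.4% of all tested genes), the exception being ORC3 with an interval from -0.21 to 1.07. It stayed within 0.6 log2 units in 39 members (53.2% of all tested genes) and within 0.5 in 32 (40.1%). With 3 samples a group, values inside a member's interval cannot be told from its estimate. In bulk RNA of a culture, fewer cells in S phase and less mRNA per cell cannot be told apart.

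**Figure D2:**
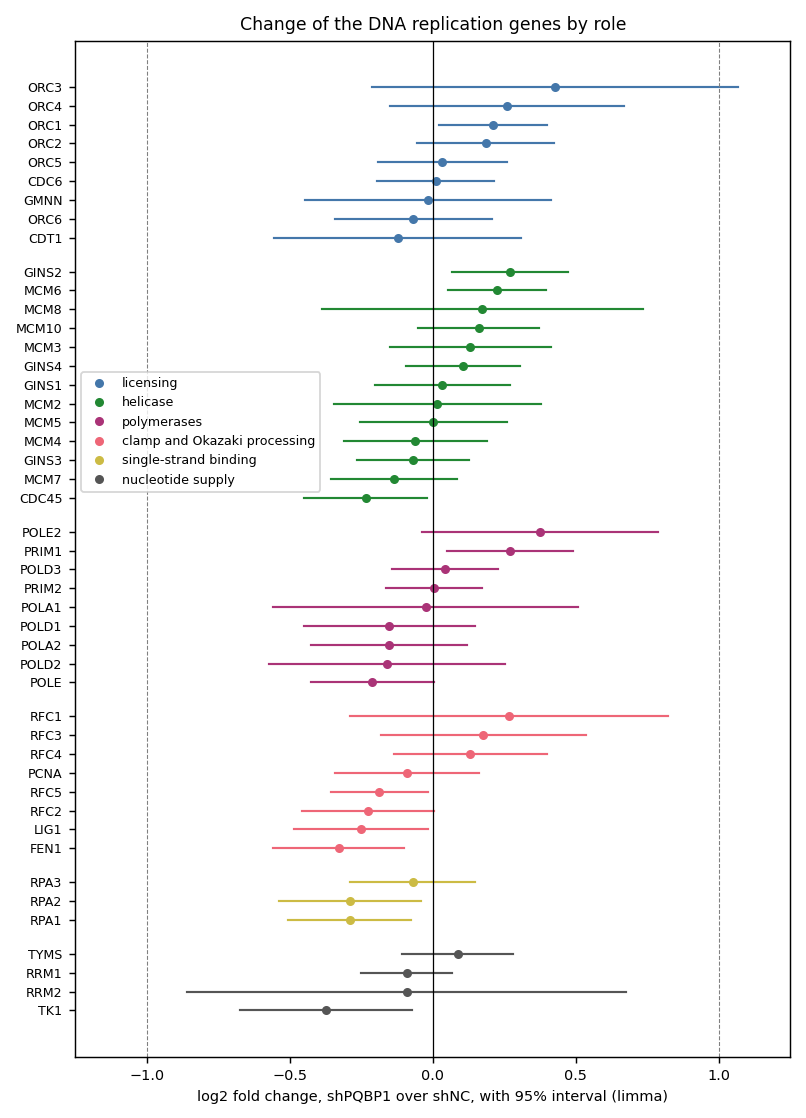
Log2 fold change of each replication gene, shPQBP1 over shNC, on log2(FPKM + 0.1), with its 95% interval from limma (3 samples a group), grouped by role. Dashed lines mark 1 log2 unit. Points run from -0.37 (TK1) to 0.43 (ORC3), and 11 intervals do not include 0.

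Among the 9 licensing genes, 6 lay above and 3 below 0, with a median log2 fold change of 0.03. This balance turned to 3 above and 6 below with the trend of GC content and length removed, where ORC2, ORC4, ORC5 and CDC6 lay below and CDT1 above 0, and to 4 above and 5 below with quantile normalization. CDC6, the loader with the highest level of this group (chr17:40287879-40304657, plus strand, hg38), was at 19.11, 16.93 and 17.08 FPKM in shNC samples 1 to 3 and at 18.29, 16.85 and 18.32 FPKM in shPQBP1 samples 1 to 3. The groups overlapped throughout, with a log2 fold change of 0.01 (95% interval -0.19 to 0.21, adjusted p = 0.948). ORC1, the largest ORC subunit and the one whose level cycles with the cell cycle (chr1:52372829-52404423, minus strand), was at 11.87, 10.92 and 10.56 FPKM in shNC and at 12.90, 13.05 and 12.63 FPKM in shPQBP1. Every shPQBP1 sample was above every shNC sample, by a log2 fold change of 0.21 (SE 0.08, adjusted p = 0.179).

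ORC3, a core subunit of ORC, had the widest interval of the licensing genes, and shNC 1 lay far below its other samples. It was at 5.14, 10.30 and 9.34 FPKM in shNC and at 11.63, 9.61 and 10.89 FPKM in shPQBP1 samples. Its log2 fold change of 0.43 became 0.12 without shNC 1 (adjusted p = 0.513). ORC2, ORC4, ORC5 and ORC6 had log2 fold changes of 0.18, 0.26, 0.03 and -0.07, with adjusted p from 0.296 to 0.837. The second loader CDT1 and its inhibitor geminin (GMNN), which blocks relicensing, had log2 fold changes of -0.12 and -0.02.

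The 13 helicase genes had 9 values above and 4 below 0, with a median of 0.03, but 6 above and 7 below with quantile normalization. MCM3, the helicase gene with the highest level (chr6:52264014-52284881, minus strand), was at 56.35, 45.47 and 44.76 FPKM in shNC and at 57.81, 52.70 and 49.53 FPKM in shPQBP1. In both groups sample 1 was the highest, and the groups overlapped, with a log2 fold change of 0.13 (95% interval -0.15 to 0.41, adjusted p = 0.499). GINS2, a GINS subunit (chr16:85676198-85690073, minus strand), was at 7.62, 7.11 and 7.19 FPKM in shNC and at 8.46, 9.49 and 8.57 FPKM in shPQBP1. All shPQBP1 samples were above all shNC samples, with a log2 fold change of 0.27 (SE 0.08, adjusted p = 0.133).

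MCM6, whose window holds a pair of E2F-type runs, was at 22.78, 22.06 and 22.11 FPKM in shNC and at 27.58, 25.48 and 25.28 FPKM in shPQBP1 samples. Its groups did not overlap, and the log2 fold change was 0.22 (SE 0.07, adjusted p = 0.137). The other ring genes MCM2, MCM4, MCM5 and MCM7 had log2 fold changes of 0.02, -0.06, 0.0019 and -0.13, with adjusted p from 0.386 to 0.992. CDC45, the helicase cofactor, lay the other way from MCM6. It was at 9.48, 9.79 and 10.73 FPKM in shNC and at 8.01, 8.44 and 9 FPKM in shPQBP1, with a log2 fold change of -0.23 (SE 0.09, adjusted p = 0.184). GINS1, GINS3 and GINS4 were at 0.03, -0.07 and 0.11 log2 fold change and MCM10, which acts at origin firing, at 0.16. MCM8, a helicase of recombination and repair, was at 0.17 and turned to -0.09 without shNC 1. A neighbouring readthrough gene on the same strand shares 33.3% of the annotated exon bases of MCM8.

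Of the 9 polymerase genes, 4 were above and 5 below 0, with a median of -0.02. PRIM1, the catalytic subunit of primase (chr12:56730438-56752374, minus strand), had both the highest level and the smallest p of this group. It was at 10.73, 11.17 and 12.28 FPKM in shNC and at 13.27, 13.22 and 14.77 FPKM in shPQBP1, without overlap, and the log2 fold change was 0.27 (SE 0.09, adjusted p = 0.151). Its partner PRIM2 differed by 0.0056 (95% interval -0.16 to 0.17). The catalytic subunit of polymerase epsilon, POLE, was at 4.28, 3.94 and 3.87 FPKM in shNC and at 3.30, 3.51 and 3.59 FPKM in shPQBP1, also without overlap but in the lower direction (log2 fold change -0.21, adjusted p = 0.217). Its accessory subunit POLE2 pointed the other way, at 0.37 (adjusted p = 0.241). POLA1 and POLA2 of polymerase alpha were at -0.02 and -0.15, and POLD1, POLD2 and POLD3 of polymerase delta at -0.15, -0.16 and 0.04.

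Among the 8 genes of the clamp and of Okazaki fragment processing, 3 were above and 5 below 0, with a median of -0.14. At an unadjusted p under 0.05 in limma stood 3 of them, all lower. That is 37.5% of the group, against 11.7% of all tested genes lower and 23.6% in either direction. PCNA, the sliding clamp (chr20:5114953-5126626, minus strand), was at 123.01, 123.33 and 123.94 FPKM in shNC and at 100.07, 120.02 and 129.73 FPKM in shPQBP1 samples. The shNC values differed by less than 1 FPKM whereas the shPQBP1 values spread on both sides of them, and the log2 fold change was -0.09 (95% interval -0.34 to 0.16, adjusted p = 0.604). FEN1, the flap nuclease that trims Okazaki fragments (chr11:61792911-61797238, plus strand), was at 116.60, 94.84 and 102.50 FPKM in shNC and at 79.23, 86.74 and 83.15 FPKM in shPQBP1. Each shPQBP1 sample was below each shNC sample, with a log2 fold change of -0.33 (SE 0.09), an unadjusted p of 0.0121, the smallest of all members, and an adjusted p of 0.118.

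LIG1, the ligase that seals the fragments, was at 9.83, 9.15 and 9.38 FPKM in shNC and at 7.44, 8.86 and 7.55 FPKM in shPQBP1, again without overlap (log2 fold change -0.25, adjusted p = 0.188). The clamp loader subunits did not share a direction. RFC5 and RFC2 were lower without overlap, at -0.19 and -0.23, whereas RFC1, RFC3 and RFC4 were at 0.27, 0.18 and 0.13, with overlap. RFC1 was at 7.44 FPKM in shNC 1 against 10.94 to 14.11 in the other 5 samples, and its log2 fold change was 0.02 without shNC 1.

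The single-strand binding genes were all 3 below 0. RPA1, the large subunit of RPA (chr17:1829702-1900082, plus strand), was at 32.87, 29.54 and 30.38 FPKM in shNC and at 23.11, 26.79 and 26.02 FPKM in shPQBP1 samples. All 3 shPQBP1 samples were below the controls, with a log2 fold change of -0.29 (SE 0.09, adjusted p = 0.131). RPA2 was at 23.13, 19.57 and 19.90 FPKM in shNC and at 16.21, 16.33 and 18.62 FPKM in shPQBP1, with nearly the same log2 fold change of -0.29 (SE 0.10, adjusted p = 0.166). RPA3, the small subunit, overlapped between the groups at -0.07 (95% interval -0.29 to 0.15).

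In deoxynucleotide supply, 1 gene was above and 3 were below 0. TYMS, thymidylate synthase (chr18:657653-673578, plus strand), was at 69.89, 80.84 and 80.62 FPKM in shNC and at 80.36, 81.71 and 83.13 FPKM in shPQBP1. The values overlapped, and the log2 fold change was 0.09 (95% interval -0.11 to 0.28, adjusted p = 0.518). The gene ENOSF1 on the opposite strand shares 39.9% of the annotated exon bases of TYMS, and the sources used here do not say whether strand was used in the counting. TK1, the thymidine kinase of the salvage route in S phase (chr17:78174091-78187233, minus strand), was at 64.00, 47.04 and 56.06 FPKM in shNC and at 41.09, 41.46 and 45.51 FPKM in shPQBP1. It had the largest negative log2 fold change of the members, -0.37 (SE 0.12, adjusted p = 0.149), and its groups did not overlap.

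RRM1 was at 55.67, 60.16 and 59.22 FPKM in shNC and at 55.25, 53.38 and 55.66 FPKM in shPQBP1, 0.09 log2 units lower with groups that only just did not overlap. RRM2, the subunit that rises in S phase, was the most variable member, with a coefficient of variation of 43.0% in shNC and 26.0% in shPQBP1 against medians of 8.77% and 6.35% over the members. It was at 35.81, 18.42 and 17.60 FPKM in shNC and at 28.20, 18.41 and 18.48 FPKM in shPQBP1, so that sample 1 was high in both groups. Its interval, from -0.86 to 0.68, was wide.

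**Figure D3:**
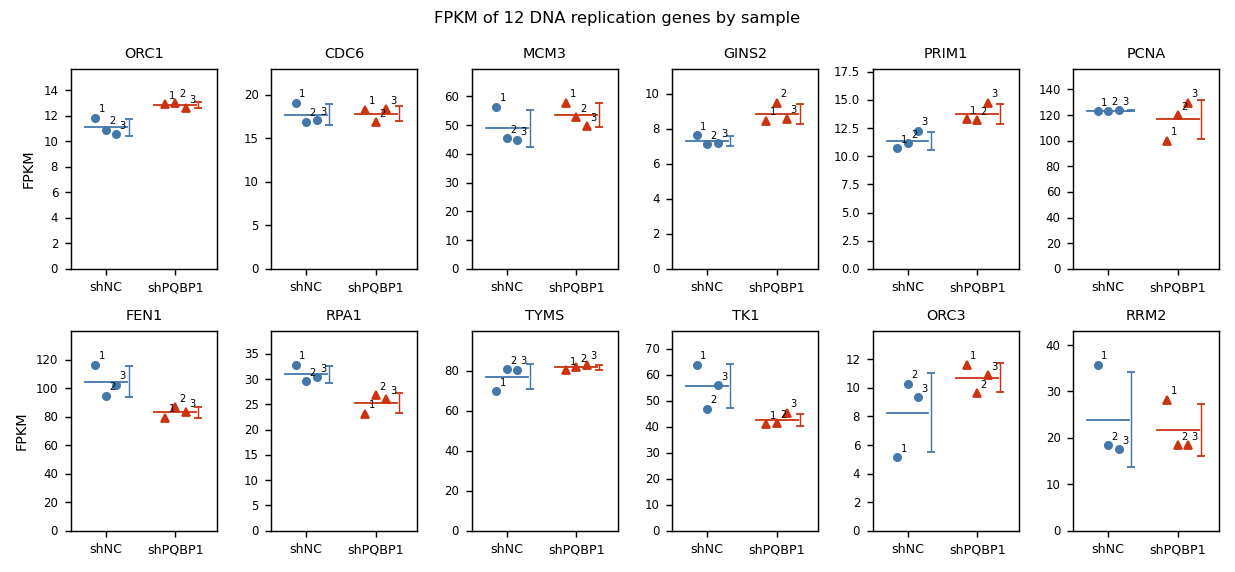
FPKM of 12 replication genes in each sample, with the sample number beside each point, the group mean as a line and the SD as a bar (3 samples a group). ORC1, GINS2 and PRIM1 are higher and FEN1, RPA1 and TK1 lower in all shPQBP1 samples without passing the adjusted threshold, shNC 1 is low in ORC3 at 5.14 FPKM, and sample 1 of both groups is high in RRM2.

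The differences between members followed the base composition of their transcripts, as they did over all genes. GC content of the Ensembl canonical transcript ran from 37.4 to 64.8% in the members. Spearman's rho between it and the log2 fold change was -0.63 over the 46 members and -0.46 over 11385 tested genes, and -0.34 and -0.24 without shNC 1. These are descriptions across genes that share the same 6 libraries. Of the 23 members below the members' median GC content, 16 had values above 0 (median log2 fold change 0.04), and of the 23 at or above it, 7 did (median -0.13). Over all tested genes split at the same GC content the medians were 0.18 and -0.09. The level of a member in shNC 1 relative to the mean of shNC 2 and shNC 3 followed GC content as well, with a rho of 0.72. In 7 members shNC 1 was below 0.75 of that mean, namely ORC3, MCM8, RFC1, POLA1, POLE2, RFC3 and ORC4. The 5 members furthest above that mean in shNC 1 were RRM2 (1.99 times), POLD2 (1.42 times), MCM2 (1.35 times), CDT1 (1.27 times) and POLD1 (1.27 times), of which all but RRM2 were above the members' median GC content.

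After removal of the trend with GC content and transcript length from each sample, 3 members were called, FEN1 lower at -0.28 (adjusted p = 0.0308), GINS2 higher at 0.28 (adjusted p = 0.0444) and RRM1 lower at -0.22 (adjusted p = 0.0455). In the same fit 1006 genes were called among 11385, 489 higher and 517 lower, and the median of the members was -0.07 with 16 above and 30 below 0. The log2 fold changes of PRIM1 and MCM6 became 0.05 and 0.10 in that fit (adjusted p = 0.787 and 0.468), and those of RPA1 and RPA2 were -0.33 and -0.29 (adjusted p = 0.0547 and 0.0795).

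**Figure D4:**
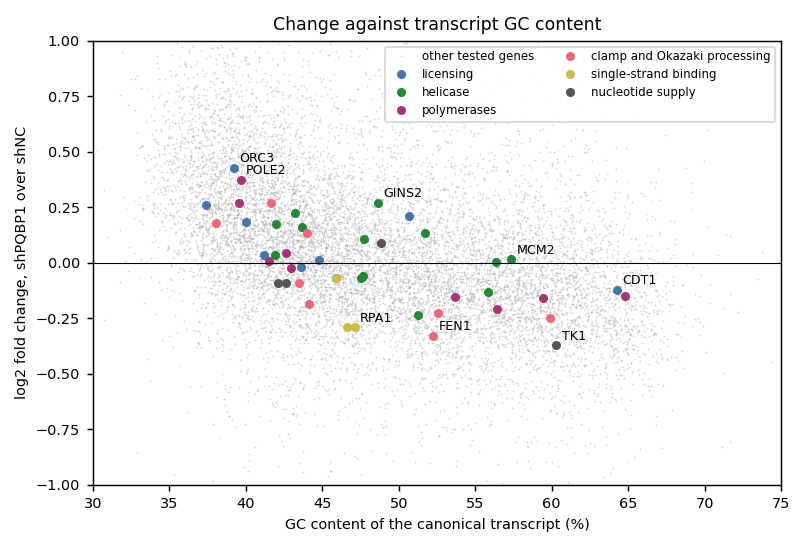
Log2 fold change, shPQBP1 over shNC, against GC content of the canonical transcript for the 46 members (coloured by role) and the other tested genes (grey, those beyond 1 log2 unit or outside the GC range of the axis not drawn). Members of low GC content such as ORC3 and POLE2 lie above 0 and members of high GC content such as TK1 below it, with a rho of -0.63 over the members.

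The members with an E2F-type match did not stand out by direction. In the 20 members with a match the log2 fold changes ran from -0.25 to 0.43 with a median of 0.01, 11 above and 9 below 0. In the 20 members with a window but no match they ran from -0.37 to 0.27 with a median of -0.08, 9 above and 11 below 0. Only exact motifs were searched, and the windows of CDC45 and MCM10 hold letters that differ from TTTGGCGC in the last base. The split therefore does not separate all E2F-type promoters from the others. Of the 6 lower members at an unadjusted p under 0.05 that had a window, only LIG1 held a match, and of the 4 higher members, MCM6 and GINS2 did.

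Other genes of replication and of its control were examined from lists beside the members. Of 34 other replication factors, 31 were tested, and 0 were called in limma. At an unadjusted p under 0.05 stood 2 with higher and 2 with lower values (12.9% of the list, against 23.6% of all tested genes). The smallest p-values belonged to SSRP1, a subunit of the histone chaperone FACT (log2 fold change -0.24, adjusted p = 0.134), RECQL4, a helicase of origin firing (-0.49, adjusted p = 0.171), and TIPIN of the fork protection complex (0.26, adjusted p = 0.205). The median of the list was 0.18, with 23 above and 8 below 0. Over all 11413 tested genes the median was 0.0208, with 6026 above and 5387 below 0. As for the members, the trend with GC content was not removed from these values. Among 13 genes of proliferation and mitosis 0 were called, with 3 lower at an unadjusted p under 0.05 (23.1%, against 11.7% of all tested genes in this direction and 23.6% in either), namely AURKA (-0.23), AURKB (-0.40) and BIRC5 (-0.25), with adjusted p from 0.123 to 0.209. The median of this list was -0.11, with 5 above and 8 below 0. The groups did not overlap in 7 of the 13 genes, all lower. That is 53.8% of the list, against 17.1% of all tested genes lower and 34.4% in either direction. MKI67, the gene of the Ki-67 antigen, lay the other way, at 0.37 with an interval from -0.26 to 1.00. It was at 20.08, 42.29 and 31.15 FPKM in shNC and at 41.00, 35.58 and 39.34 FPKM in shPQBP1, with shNC 1 the lowest sample.

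Of 33 G1/S regulators, 28 were tested and 1 was called, against 2.91% of all tested genes. At an unadjusted p under 0.05 stood 3 with higher and 3 with lower values (21.4% of the list, against 23.6% of all tested genes). CCNE1, cyclin E1, which drives entry into S phase, was at 3.46, 3.12 and 3.65 FPKM in shNC and at 1.99, 2.08 and 2.40 FPKM in shPQBP1 samples. It fell by 0.64 log2 units (SE 0.12, adjusted p = 0.0482), and the adjusted p was 0.0665 to 0.178 with any single sample left out and 0.0989 when all genes above 0 in any sample were tested. The next smallest p-values were those of E2F5 (-0.62, adjusted p = 0.0973) and RBL2, a pocket protein of the RB family (0.45, adjusted p = 0.131). E2F1, an activating member of the family, differed by 0.09 (95% interval -0.20 to 0.37). CDKN1A, the p53-induced CDK inhibitor p21, is named because its values stood out when seen. It was at 101.15, 87.08 and 87.01 FPKM in shNC and at 18.76, 79.36 and 16.95 FPKM in shPQBP1, so that 2 of the 3 shPQBP1 samples were far below the third. Its log2 fold change of -1.64 had an adjusted p of 0.166 in limma. Without shPQBP1 2 it was -2.35, but that sample was picked after its value was seen, so no p-value is given. PQBP1 was at 1.72 FPKM in shPQBP1 2, close to the 1.68 and 1.44 FPKM of the other shPQBP1 samples.

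Of 26 further genes of nucleotide supply, all tested, limma called 0, and 7 stood at an unadjusted p under 0.05 (26.9%, against 23.6% of all tested genes), of which 6 were lower (11.7% of all tested genes). NME1, a nucleoside diphosphate kinase, was at 67.83, 54.25 and 55.49 FPKM in shNC and at 37.05, 39.04 and 42.32 FPKM in shPQBP1, without overlap and just outside the threshold (log2 fold change -0.58, adjusted p = 0.0527). Its close homologue NME2 was at -0.43 (adjusted p = 0.122), and reads may be split between these near-identical genes. CTPS1, which makes CTP, was at 16.63, 14.13 and 15.13 FPKM in shNC and at 11.12, 10.57 and 11.60 FPKM in shPQBP1 (log2 fold change -0.46, adjusted p = 0.0554). In the fit with GC content and length removed, 7 genes of these lists were called, CCNE1, NME1, NME2, CTPS1 and AURKA lower and RNASEH2A and GUK1 higher. The share called in these lists was no higher than that of all genes in the same fit, whose count is given above.

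**Figure D5:**
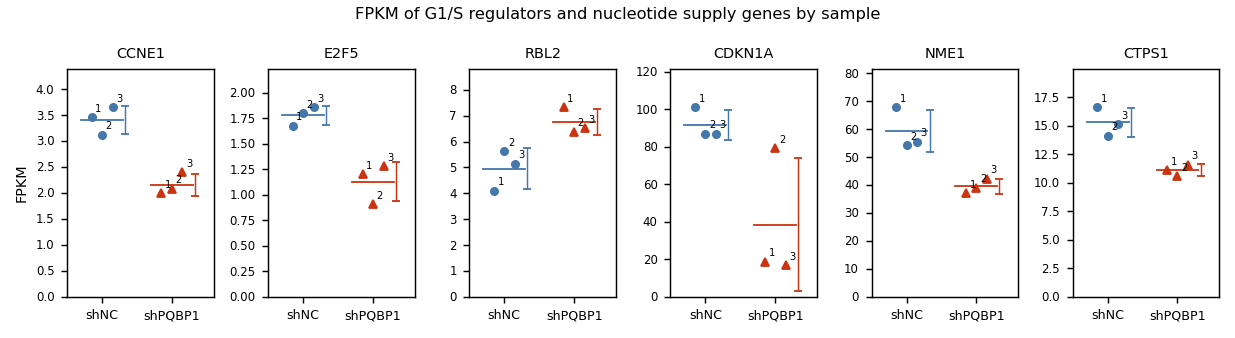
FPKM of 4 G1/S regulators (CCNE1, E2F5, RBL2, CDKN1A) and 2 nucleotide supply genes (NME1, CTPS1) in each sample, with the sample number, the group mean as a line and the SD as a bar (3 samples a group). CCNE1 was called lower, and in CDKN1A sample shPQBP1 2, at 79.36 FPKM, lies near the controls while the other 2 are at 18.76 and 16.95.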

How the data were processed

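Poly(A) RNA of the 6 samples was sequenced in pairs on an Illumina instrument. Per the submitters' processing notes and the study's methods, the authors used HISAT2 (version 2.2.0) for mapping to hg38, SAMtools (version 1.9) for sorting, StringTie (version 1.3.0) for the transcripts and edgeR for testing. The annotation release is not given in the sources used here. The FPKM values per gene and sample are as deposited by the authors, rounded to 2 decimals, with replicates not pooled. The same table holds the authors' own comparison (fold change, log2 fold change, p-value, q-value, direction and a significance mark), which was not used. FPKM does not carry depth, so no counting error is given, and the spread between 3 samples stands for all error.

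Values were taken as log2(FPKM + 0.1) for the 11413 genes with a mean of at least 1 FPKM over the 6 samples and tested in R (version 4.3.3) by limma (version 3.58.1), using lmFit and eBayes with a trend and a two-sided p, adjusted by Benjamini-Hochberg across all genes tested. A call is an adjusted p under 0.05. GC content and transcript length came from GENCODE release 44, whose trends were removed per sample with natural splines of 5 degrees of freedom each, for 11385 genes. Alternatives were other scalings, filters and pseudocounts, no trend, the replicate number as a block, this correction, and each sample left out. The comparison of shPQBP1 against shNC was tested on simulated data. There 57.6% of the changes of 1 log2 unit and 82.8% of those of 1.5 log2 units were called. The noise was drawn separately for each gene. Changes as small as those of the members were not simulated, so the share of such changes that would be called is not known.

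Named were all members by role, with values per sample for the member of each role with the highest mean and the one with the smallest p and for further examples, and from the other lists the called genes or else the 3 with the smallest p; E2F5, RBL2, E2F1, CDKN1A and MKI67 were added after their values were seen. The members and lists were chosen with earlier results of these data known. Promoter sequences are from RefSeq (GRCh38.p14), read with Python (version 3.11.15) and pandas (version 2.3.3), and figures were drawn with matplotlib (version 3.10.9).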

Additional observations from a re-analysis of the deposited data

How the results depend on the processing

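No member was called under any alternative other than the correction for GC content and length, which called 3 (1 higher, 2 lower). The 11 members at an unadjusted p under 0.05 became 4 (8.7%) with the replicate block, against 16.1% of all genes in that fit, and 4 to 13 with 1 sample left out (8.7 to 28.3%, against 15.6 to 25.8% of all genes). The same-numbered samples of the groups did not deviate together (correlations of -0.186, -0.138 and -0.011 over genes). Differently numbered samples gave -0.143 to 0.225. No pairing by number was seen over all genes, but deviations from means of 3 samples cannot exclude one. Under the replicate block 0 genes of all were called, in place of 332, and PQBP1, at -2.04, had an adjusted p of 0.0686, with no member called. With the block and the correction together 19 genes of all, 0 members and 0 genes of the other lists were called. The count over all genes was 190 among 30717 genes above 0 in any sample, 211 among 3661 with a mean of at least 10 FPKM (PQBP1 was too low for that filter), 1006 with the correction and 30 to 464 with 1 sample left out. The 1 call in the other lists became 2 under quantile normalization and at a mean of at least 10 FPKM, 0 with genes above 0 in any sample, with the block and with block and correction, 7 with the correction, and 0 to 2 with 1 sample left out. The members' median was -0.0348 under quantile normalization, -0.0747 under the correction, with or without the block, and -0.0447 to 0.0127 with 1 sample left out. The causes of these moves were not tested, and since depth is unknown, no limit from counting can be given.

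The sign turned in 19 of the 46 members under at least 1 alternative, none of which had a value beyond 0.26 log2 units. Median-of-ratios scaling gave CDC6 -0.0058, MCM5 -0.0141 and PRIM2 -0.0104. Quantile normalization gave ORC5 -0.023, CDC6 -0.0053, MCM2 -0.0104, MCM5 -0.0159, GINS1 -0.0222, PRIM2 -0.0202 and POLD3 -0.0134. The correction, with or without the block, gave ORC2 -0.0608, ORC4 -0.0684, ORC5 -0.1277, CDC6 -0.0721, CDT1 0.0527, GINS1 -0.1308, MCM8 -0.032, PRIM2 -0.1455, POLD1 0.0022, POLD3 -0.1035 and RFC3 -0.0773. With 1 sample left out the ranges that crossed 0 were MCM8 -0.0939 to 0.3135, POLD2 -0.2633 to 0.0078, RRM2 -0.2947 to 0.2379, CDC6 -0.0208 to 0.0661, GMNN -0.14 to 0.1348, MCM2 -0.0791 to 0.1608, MCM5 -0.0569 to 0.0997, GINS1 -0.0523 to 0.0845, POLA1 -0.2565 to 0.1569, PRIM2 -0.0069 to 0.0228, ORC5 -0.0239 to 0.094, PCNA -0.1714 to 0.0157 and ORC6 -0.1377 to 0.0266.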

Other observations

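Among the G1/S regulators, CDKN2D, the CDK4 and CDK6 inhibitor p19, was at 6.70, 0.70 and 5.44 FPKM in shNC and at 5.36, 1.22 and 5.67 FPKM in shPQBP1 samples, so that sample 2 was low in both groups. CDK6 was at 3.16, 6.90 and 6.27 FPKM in shNC and at 9.63, 7.62 and 8.59 FPKM in shPQBP1, with every shPQBP1 sample above every control (log2 fold change 0.72, adjusted p = 0.211, limma). Cyclin D1 (CCND1), its partner, was the most abundant gene of these regulators, at 211.62, 208.04 and 213.11 FPKM in shNC and at 218.82, 230.57 and 217.23 FPKM in shPQBP1 (log2 fold change 0.07, adjusted p = 0.436). The CDK4 and CDK6 inhibitor gene CDKN2A was listed at 0 in all shNC samples and at or below 0.01 FPKM in shPQBP1 samples. These genes were named after their values were seen.

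CENPF, a kinetochore gene with a long transcript, had the largest log2 fold change of the proliferation genes, 0.91 (95% interval -0.21 to 2.03, adjusted p = 0.278, limma). Of the 13 genes of that list, 8 lay below 0. It was at 4.43, 15.49 and 9.90 FPKM in shNC and at 22.09, 12.63 and 16.50 FPKM in shPQBP1 samples, with shNC 1 the lowest of the 6.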
